A study of Mus musculus with 10 samples.

Results

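The genes described here are 10 genes of neutrophil granules and of neutrophil cytosol, measured in the cochlea of noise-exposed and control mice: Mpo, Elane, Prtn3, Camp, Ngp, Ltf, Lcn2, Chil3, S100a8 and S100a9. They were taken as every probe set whose symbol in the platform annotation is one of these names, which gave 12 probe sets for 10 genes, of 8251 genes with 1 symbol on the array. Mpo and Lcn2 had a second, dimmer probe set, and the brighter one stands for the gene. All 12 probe sets passed the filter on dim signals.

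Neutrophils carry ready-made proteins in granules that are filled in sequence while the cell matures in the bone marrow. Genes of the primary (azurophil) granule, the early class here, are transcribed in promyelocytes: Mpo encodes myeloperoxidase, which makes hypochlorous acid, and Elane and Prtn3 encode the serine proteases neutrophil elastase and proteinase 3. Genes of the secondary and later granules, the late class, are transcribed in myelocytes and later stages. They include Camp (the antimicrobial peptide cathelicidin), Ngp (neutrophilic granule protein), Ltf (the iron-binding protein lactoferrin), Lcn2 (lipocalin 2, which binds bacterial siderophores) and Chil3 (a chitinase-like protein also made by some macrophages). S100a8 and S100a9 encode the subunits of calprotectin, an abundant calcium-binding protein of the neutrophil cytosol, and are counted with the late class.

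RNA came from female mice aged 10 weeks, and each of the 10 Affymetrix arrays carried labelled RNA from a pool of 8 mice. Mice of the noise groups were exposed for 1 h to a 10 kHz octave band at 105 dB SPL, and their tissue was taken 6 h after the exposure. The control groups were placed in the noise chamber without noise. The groups were B6.CAST noise (2 arrays), B6.CAST control (2 arrays), 129X1/SvJ noise (3 arrays) and 129X1/SvJ control (3 arrays). 129X1/SvJ is an inbred strain known for resistance to noise damage, and B6.CAST is a congenic strain that carries CAST chromosome around Cdh23 on a C57BL/6J background. The labels spell the strain of the last noise and the last control array of 129X1/SvJ as 129XI/SvJ, and both were kept in 129X1/SvJ. Per the labels the tissue was dissected membranous labyrinth, pooled over mice, so that no value belongs to 1 mouse. In such bulk RNA, fewer neutrophils and less granule RNA per neutrophil cannot be told apart.

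Of 22 listed cochlear genes, 16, such as Coch, Gjb2 and Gjb6, were on the array, and all 16 passed the filter on mean signal. Averaged over these genes, the deviation of each array from the 10-array mean lay between -0.14 and 0.08 on the log2 scale. Within this average, genes of the list moved in both directions on 129X1/SvJ noise 1. Single genes were dim on some arrays, such as Atp2b2 with a signal of 13 on B6.CAST noise 1. The array 129X1/SvJ noise 1 correlated less well with the rest, at 0.910 on average, where the 9 remaining arrays had 0.943 to 0.955. As a measure of RNA degradation, the Gapdh signal at the 3′ end was divided by that at the 5′ end, which gave 6.94 on B6.CAST noise 1, 29.2 on 129X1/SvJ control 2 and 0.790 to 1.40 elsewhere. Depth has no meaning for arrays, and their number limits the precision.

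The promoters of 6 of the genes are shown because they carry, or lack, the short motifs of factors known to drive each class. PU.1 and C/EBP proteins are the best known activators of granule genes, with C/EBP epsilon required for secondary granule genes in mice. The sequences are those of RefSeq on GRCm38.p6, from 250 bases before to 50 bases after the start site, written 5′ to 3′ on the strand of the gene. The deposited array values themselves name no genome build. Capitals mark matches on either strand to GAGGAAG, a PU.1 motif, or to TTGCNNAA, a C/EBP motif.
Mpo (chr11:87793534-87793833, plus strand): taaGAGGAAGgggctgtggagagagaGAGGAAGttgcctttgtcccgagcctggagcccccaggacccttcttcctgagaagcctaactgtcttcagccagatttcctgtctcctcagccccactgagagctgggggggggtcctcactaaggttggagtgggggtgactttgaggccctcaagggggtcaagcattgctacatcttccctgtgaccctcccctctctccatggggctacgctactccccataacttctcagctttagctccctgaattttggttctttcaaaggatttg
Elane (chr10:79886062-79886361, plus strand): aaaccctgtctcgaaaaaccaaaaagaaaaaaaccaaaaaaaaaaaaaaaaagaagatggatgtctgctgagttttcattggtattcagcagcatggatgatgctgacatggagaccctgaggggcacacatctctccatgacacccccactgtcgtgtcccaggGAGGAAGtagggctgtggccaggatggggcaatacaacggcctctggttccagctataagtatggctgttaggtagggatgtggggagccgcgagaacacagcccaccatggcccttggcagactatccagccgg
Prtn3 (chr10:79879417-79879716, plus strand): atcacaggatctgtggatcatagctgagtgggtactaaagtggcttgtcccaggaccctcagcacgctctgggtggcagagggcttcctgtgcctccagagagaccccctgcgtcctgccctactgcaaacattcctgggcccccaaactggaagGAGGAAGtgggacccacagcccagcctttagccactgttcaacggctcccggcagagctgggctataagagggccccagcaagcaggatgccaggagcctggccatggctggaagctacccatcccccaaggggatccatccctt
Ngp (chr9:110419558-110419857, plus strand): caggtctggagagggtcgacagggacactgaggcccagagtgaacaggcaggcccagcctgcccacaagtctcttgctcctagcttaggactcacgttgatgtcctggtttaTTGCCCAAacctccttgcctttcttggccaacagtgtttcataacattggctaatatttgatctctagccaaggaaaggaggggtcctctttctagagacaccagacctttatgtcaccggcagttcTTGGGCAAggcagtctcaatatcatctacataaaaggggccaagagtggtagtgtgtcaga
Ltf (chr9:111019042-111019341, plus strand): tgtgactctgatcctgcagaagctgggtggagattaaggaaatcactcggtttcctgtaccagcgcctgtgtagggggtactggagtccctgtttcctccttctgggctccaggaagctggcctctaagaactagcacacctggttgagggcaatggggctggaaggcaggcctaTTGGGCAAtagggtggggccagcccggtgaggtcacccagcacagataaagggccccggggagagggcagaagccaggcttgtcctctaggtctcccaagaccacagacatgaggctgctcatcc
Chil3 (chr3:106167515-106167814, minus strand): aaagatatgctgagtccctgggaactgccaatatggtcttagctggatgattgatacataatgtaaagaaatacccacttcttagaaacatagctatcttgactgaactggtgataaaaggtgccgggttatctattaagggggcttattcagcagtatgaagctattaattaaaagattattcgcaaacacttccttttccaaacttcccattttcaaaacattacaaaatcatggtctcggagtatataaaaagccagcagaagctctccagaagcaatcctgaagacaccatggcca

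GAGGAAG, read on both strands, was found in 3 of 3 early promoters, at 247 and 224 bases before the start of Mpo, 85 bases before Elane and 95 bases before Prtn3. It was found in 2 of 7 late promoters, at 171 bases before S100a8 and 21 bases before Lcn2, and in 13.6% of 32851 mouse promoters of the same length. TTGCNNAA was found in 0 of 3 early and 4 of 7 late promoters and in 10.8% of all promoters. The late matches lay 138 and 11 bases before Ngp, 75 bases before Ltf, 216 bases before Lcn2 and 236 bases before S100a9. The 2 motifs did not overlap in any of these windows, and Camp and Chil3 held neither. A match is a description of letters and not of a bound site. By position in the same assembly, Prtn3 and Elane are neighbours on chromosome 10 and S100a8 and S100a9 are neighbours on chromosome 3, each pair with 0 other protein-coding genes between them. Camp, Ngp and Ltf lie on chromosome 9, with 8 protein-coding genes between Camp and Ngp and 20 between Ngp and Ltf. Chil3 is also on chromosome 3, separated from S100a9 by 252 protein-coding genes, while Mpo is on chromosome 11 and Lcn2 on chromosome 2.

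Across the 10 arrays all 10 genes shared nearly 1 pattern. Their signals were lowest on the 2 B6.CAST noise arrays, highest on 129X1/SvJ noise 1, and spread widely among the control arrays of both strains. The signals below are the deposited intensities, listed in the order of the replicate numbers. Levels of different genes are not set against each other, because probe sets differ in how strongly they hybridize.

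Among early genes, Mpo had signals of 38.0 and 58.7 on the B6.CAST noise arrays, against 786 and 183 on the B6.CAST control arrays. In 129X1/SvJ its signals were 1347, 306 and 364 with noise, against 95.3, 474 and 589.7 in controls. The B6.CAST groups did not overlap, while those of 129X1/SvJ did, with 2 control arrays between the highest noise array and the other 2. For Elane the signals were 124 and 126 with noise in B6.CAST, against 504 and 236 in its controls, and 1017, 277 and 302 with noise in 129X1/SvJ, against 141, 229 and 359.8 in its controls. The 2 B6.CAST noise pools were almost equal for elastase, and each was below every other array. Prtn3, next to Elane on the chromosome, gave 84.8 and 85.7 with noise and 496 and 136 without it in B6.CAST. Its 129X1/SvJ signals were 946, 269.6 and 266 with noise, against 111, 284 and 403 without. As for Mpo, 129X1/SvJ control 1 fell among the low arrays and 129X1/SvJ noise 1 was the highest of all.

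Of the genes of later granules, Camp measured 636 and 684 on the B6.CAST noise arrays and 3933 and 1679 on the B6.CAST controls. On the 129X1/SvJ arrays Camp measured 6082, 3030.2 and 3641 with noise and 941, 2805 and 5612 without. The third 129X1/SvJ control came close to the highest noise array, so that the groups of this strain overlapped. Ngp, whose function is less well known, gave 254 and 339 with noise and 2364 and 582 without it in B6.CAST, and 5944, 1571 and 2267 with noise and 364, 1404 and 2567 without it in 129X1/SvJ. The order of its arrays was close to that of Camp, and again only the B6.CAST groups were separate. Ltf, the lactoferrin gene, stood at 102 and 83.8 with noise and 457 and 178 without it in B6.CAST, and at 1477, 337 and 401 with noise and 109, 405 and 573 without it in 129X1/SvJ. For lactoferrin, 129X1/SvJ control 1 was nearly as low as the B6.CAST noise pools.

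Lcn2 had signals of 96.6 and 96.4 with noise, against 686 and 189.9 in controls, in B6.CAST. In 129X1/SvJ they were 2259.7, 522 and 682 with noise, against 139, 388 and 524 in controls, where the lowest noise array lay just under the highest control. Chil3 gave 113 and 102 with noise in B6.CAST, against 909 and 218 in controls. The 129X1/SvJ noise arrays read 2078, 703 and 1099 for Chil3, against 237, 446 and 765 on the controls. Here too only 1 noise and 1 control array were out of order. Chil3 has a close paralogue, Chil4, and whether its probe set also measures that gene was not tested. Among the calprotectin genes, S100a8 had 560.1 and 719 in B6.CAST with noise and 4901 and 1472 without it. S100a8 in 129X1/SvJ had 11425, 3496 and 3718 with noise and 846, 3183 and 5520.2 without. S100a9 had 443 and 429.7 in B6.CAST with noise, against 5169.9 and 1259 in controls, and 5804, 2464 and 3354 in 129X1/SvJ with noise, against 685, 2739.7 and 4851 in controls. Both subunits thus placed the same 3 arrays at the bottom, namely the B6.CAST noise pair and 129X1/SvJ control 1.

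**Figure D1:**
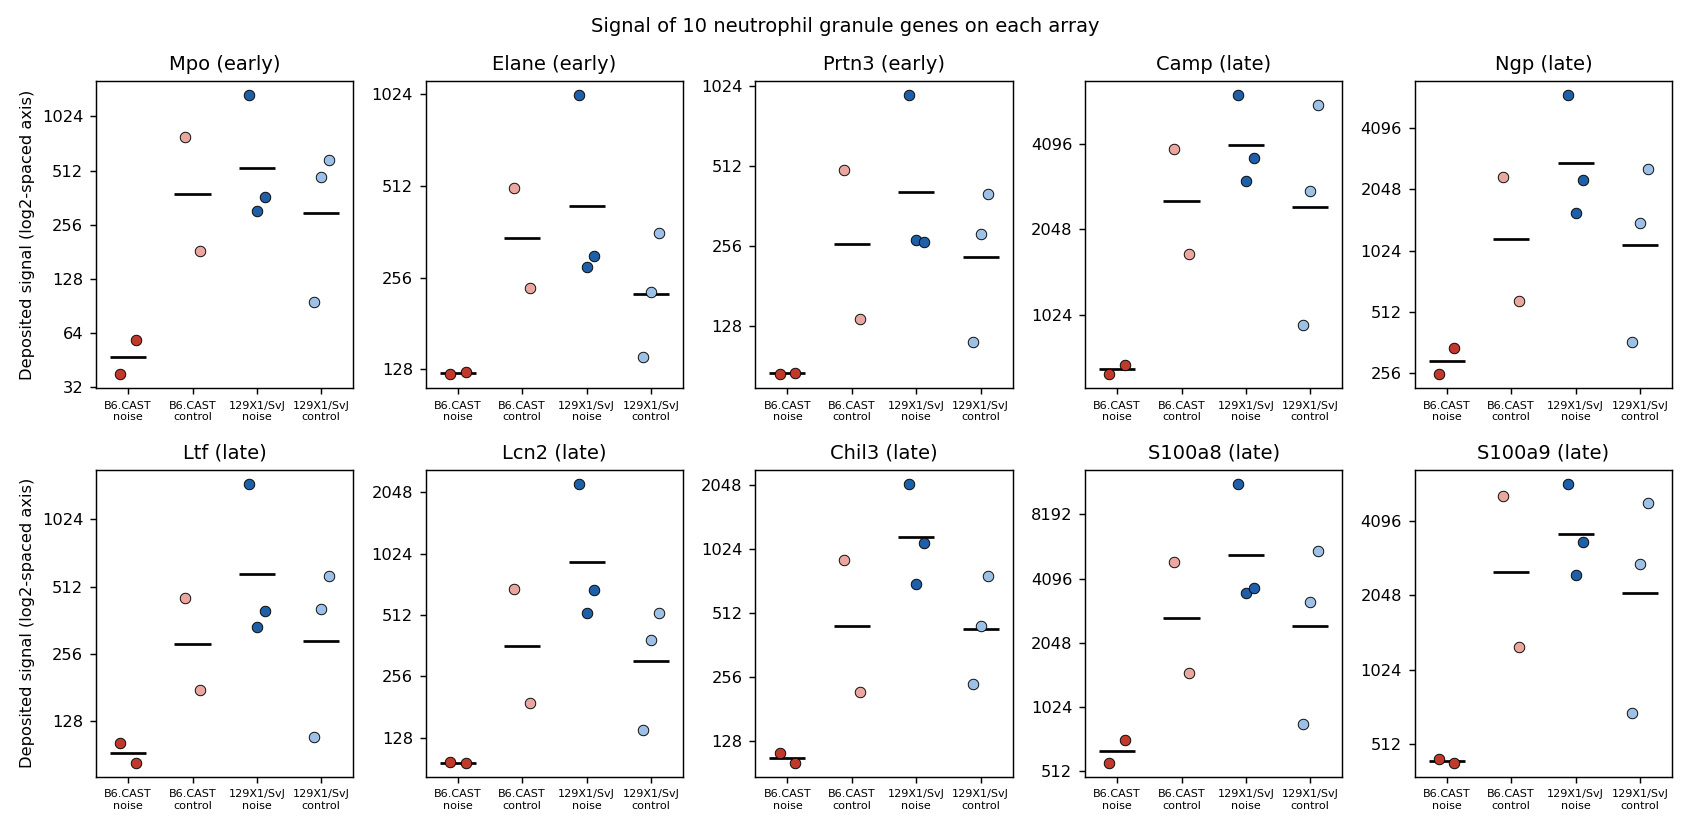
Deposited signal (vertical axis, log2-spaced) of each of the 10 granule genes on each array, by group along the horizontal axis. Points are arrays and horizontal bars are geometric means. In every panel the 2 B6.CAST noise arrays are lowest and 1 array of 129X1/SvJ noise is highest.

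Ranked by signal, 129X1/SvJ noise 1 was the highest array for 10 of 10 genes. B6.CAST noise 1 was the lowest array for 6 genes and B6.CAST noise 2 for the other 4, and together they were the lowest pair for 10 of 10. The third lowest array was 129X1/SvJ control 1 for 9 genes and B6.CAST control 2 for 1 gene, Chil3. From the lowest to the highest array, signals spanned 8.23-fold for Elane to 35.4-fold for Mpo, whose lowest signal lay below the filter value of 42.9. Within the B6.CAST noise group the members differed by 0.07 to 0.50 on the log2 scale, with a median of 0.27. The corresponding medians were 1.73 among B6.CAST control, 1.85 among 129X1/SvJ noise and 2.27 among 129X1/SvJ control arrays. By group mean the order was 129X1/SvJ noise, then B6.CAST control and 129X1/SvJ control, then B6.CAST noise. The control groups of the strains overlapped for all 10 genes and were not ordered beyond their spread.

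In B6.CAST, all 10 granule genes had lower signals on the noise arrays than on the control arrays, and the groups did not overlap for any of them. The size on the log2 scale (with 16 added to each signal, which understates the change of dim genes) had a median of -1.92, against 0.01 over all 8695 probe sets tested. None passed at an adjusted p under 0.05. The background of that call was 0.046% of probe sets, 4 in all, and 13.8% of probe sets had lower noise arrays with no overlap. For Mpo the estimate was -2.69 ± 0.86 (SE, n = 2 noise and 2 control arrays, limma adjusted p = 0.9999), but its noise signals of 38.0 and 58.7 lie near the filter value of 42.9 and no detection call was used, so no exact fold is given. S100a9 was at -2.49 ± 0.81 and S100a8 at -2.04 ± 0.80. Camp, Ngp and Chil3 were each at -1.92, with errors of 0.65, 0.85 and 0.65. Lcn2 was at -1.76 ± 0.73, Ltf at -1.47 ± 0.77, Prtn3 at -1.47 ± 0.70 and Elane at -1.35 ± 0.59. In limma, 8 of the 10 had an unadjusted p under 0.05, the exceptions being Ltf and Prtn3, whereas 183 of all 8695 probe sets did. The 10 genes moved together across arrays, with a median correlation of 0.948 within groups, and were chosen with earlier results known. They therefore do not count as 10 separate tests.

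The size of this difference rested on 1 control array. Without B6.CAST control 1, which carried the higher signal for every gene, the median was -0.95 and the changes lay between -0.64 for Prtn3 and -1.73 for Mpo. Without B6.CAST control 2 the median was -2.73. The direction was the same for all 10 genes under the 22 alternatives run, and none passed in any.

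In 129X1/SvJ, all 10 genes had higher means on the noise arrays, with a median of 0.90 against -0.04 over all probe sets, but the groups overlapped for 10 of 10 and none passed. For scale, 0.506% of probe sets passed in this strain and 16% had groups that did not overlap in either direction. Lcn2 was at 1.53 ± 0.60 (SE, n = 3 noise and 3 control arrays, limma adjusted p = 0.39) and Chil3 at 1.40 ± 0.53 (limma adjusted p = 0.38). These were the 2 members with an unadjusted p under 0.05, of 1003 probe sets in all. Ngp was at 1.34 ± 0.69, S100a8 at 1.11 ± 0.65 and Ltf at 0.92 ± 0.63. The remaining genes were Elane at 0.88 ± 0.48, S100a9 at 0.82 ± 0.66, Mpo at 0.76 ± 0.71, Camp at 0.76 ± 0.53 and Prtn3 at 0.73 ± 0.57. The median moved to 0.48 without 129X1/SvJ noise 1, to 0.31 without 129X1/SvJ control 1 and to 1.39 without 129X1/SvJ control 3. Without 129X1/SvJ noise 1 the changes of Prtn3, Ltf and Elane were 0.13, 0.24 and 0.27. Without 129X1/SvJ control 1 those of S100a9, Mpo and Camp were 0.02, 0.02 and 0.07.

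**Figure D2:**
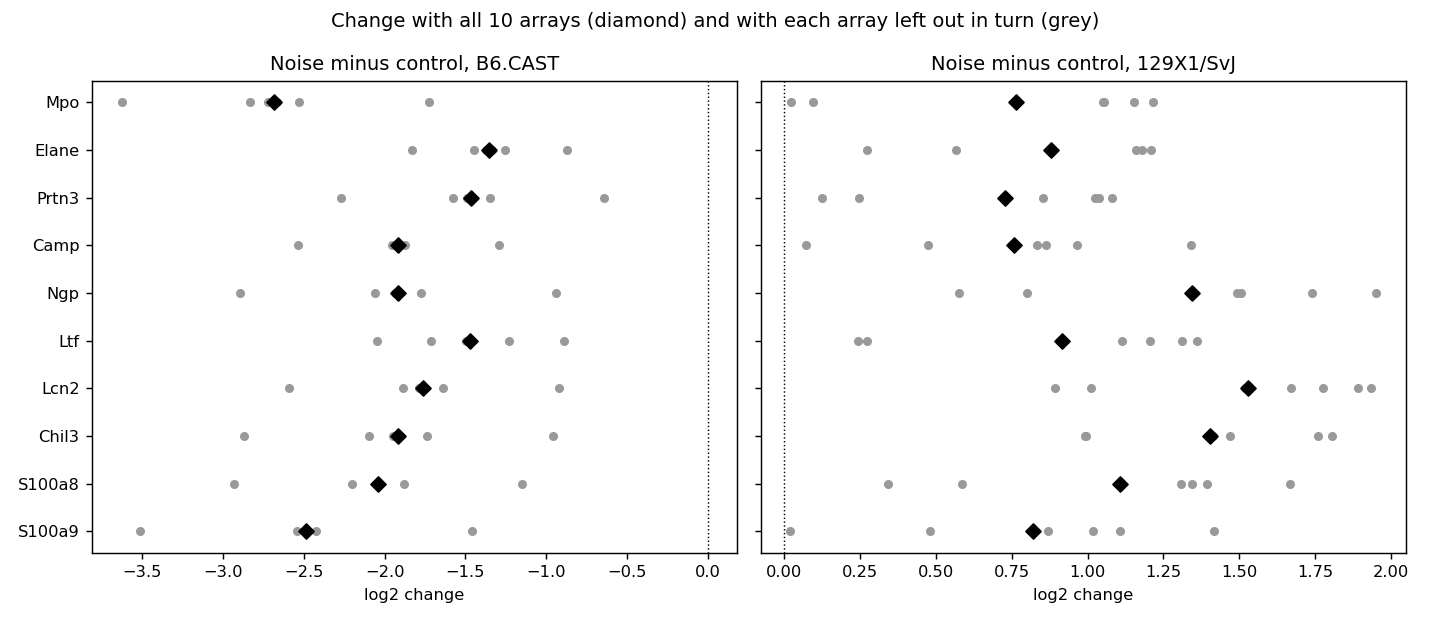
Change with noise (log2, horizontal axis) of each granule gene in B6.CAST (left) and 129X1/SvJ (right), with all 10 arrays (diamond) and with each array left out in turn (grey points). In B6.CAST every value stays below 0, and in 129X1/SvJ every value stays above 0 but comes close to it for Mpo and S100a9.

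The difference of the noise effects asks whether noise moved a gene differently in the strains. It was negative for all 10 genes, meaning a lower noise effect in B6.CAST than in 129X1/SvJ, with a median of -3.21 against 0.06 over all probe sets. None passed, and 0% of all probe sets did, while 258 probe sets and 10 of 10 members had an unadjusted p under 0.05 in limma. Here too the 10 members are not separate tests. Mpo, S100a9, Chil3 and Lcn2 had the largest estimates, at -3.45 ± 1.11, -3.31 ± 1.04, -3.32 ± 0.84 and -3.29 ± 0.95. Prtn3 and Elane had the smallest, at -2.19 ± 0.90 and -2.23 ± 0.76. Without B6.CAST control 1 the estimate for Prtn3 was -1.37, and with each array left out the median of the members ran from -4.07 to -2.27. The limma adjusted p was 0.997 for each.

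Between the strains after noise, all 10 genes were lower in B6.CAST than in 129X1/SvJ, with no overlap for any, and 1 of the 10 passed. That gene was Chil3, at -3.24 ± 0.60 (SE, n = 2 B6.CAST and 3 129X1/SvJ noise arrays, limma adjusted p = 0.0211), a 9.47-fold lower level. The background was 1.45% of probe sets called, 126 in all, and 12.1% lower in B6.CAST without overlap. Lcn2, at -3.03 ± 0.67, missed the threshold with a limma adjusted p of 0.0527, as did Camp at -2.60 ± 0.60 with 0.0619. S100a8 was at -2.999 ± 0.73 and S100a9 at -3.01 ± 0.74, both with an adjusted p of 0.0828 in limma. Ngp was at -3.15 ± 0.77, Mpo at -3.09 ± 0.79, Ltf at -2.43 ± 0.70, Prtn3 at -2.04 ± 0.64 and Elane at -1.67 ± 0.54. The median of the members was -3.01, against 0.02 over all probe sets. The call of Chil3 held in 15 of 22 alternatives. It was lost without B6.CAST noise 1 (limma adjusted p = 0.144), without B6.CAST noise 2 (0.198) and without 129X1/SvJ noise 1 (0.0634), where its change was -3.41, -3.06 and -2.86. For Elane the change was -1.08 without 129X1/SvJ noise 1. With median centring in place of quantile normalization, 6 of the 10 passed, where 64 of all 8695 probe sets were called higher and 49 lower.

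In control mice no granule gene differed between the strains by more than the spread of the arrays. The median was 0.15, against -0.05 over all probe sets, and the changes ran from -0.04 for Ltf to 0.56 for Elane. None passed, the groups overlapped for 10 of 10, and none had an unadjusted p under 0.05. Among all probe sets 0.92% passed and 29.9% had groups without overlap in this comparison. The intervals were wide: that of Mpo reached from -1.37 to 2.09 on the log2 scale. Without B6.CAST control 1 the median was -0.65, and without 129X1/SvJ control 1 it was -0.44. The comparisons share arrays, since the same noise and control arrays enter several of them.

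**Figure D3:**
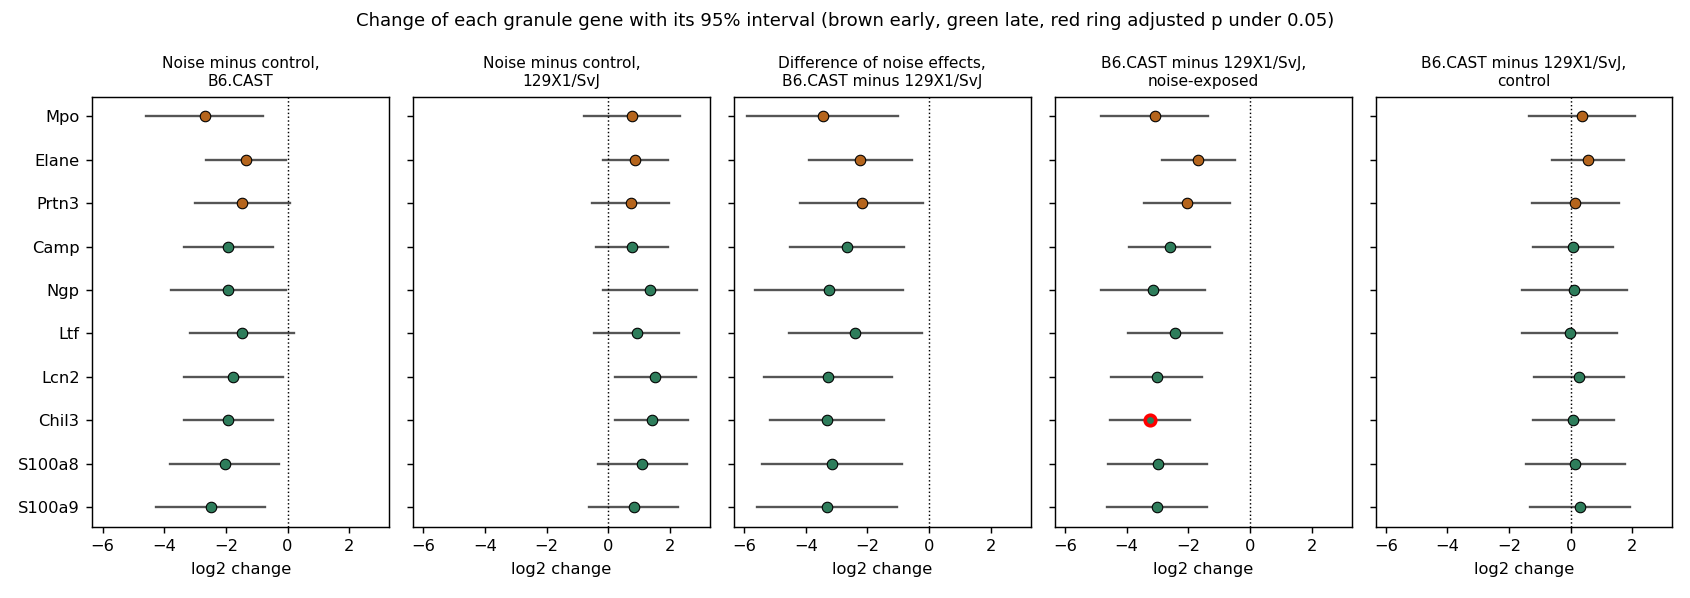
Change of each granule gene (log2, horizontal axis) with its 95% interval in 5 comparisons. Brown points are early genes, green points are late genes and a red ring marks an adjusted p under 0.05, which only Chil3 has, for the strains after noise.

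Early and late genes had their high and low signals on the same arrays. In B6.CAST the median change with noise was -1.47 for the 3 early genes (-2.69 for Mpo to -1.35 for Elane) and -1.92 for the 7 late genes (-2.49 to -1.47). In 129X1/SvJ it was 0.76 for early and 1.11 for late genes, and between the strains after noise it was -2.04 for early and -3.01 for late genes. On each array the late genes deviated in the same direction as the early genes, and by more, except on B6.CAST control 1. On the B6.CAST noise arrays the early genes lay at -1.46 and -1.52 relative to the 10-array mean and the late genes at -1.76 and -1.85. On the B6.CAST controls the early genes lay at 1.10 and -0.41, and the late genes at 0.98 and -0.72. On the 129X1/SvJ noise arrays the early genes stood at 2.04, 0.11 and 0.19, and the late genes at 2.10, 0.45 and 0.81. On the 129X1/SvJ controls they stood at -1.04, 0.28 and 0.72 for early and at -1.32, 0.29 and 1.01 for late genes. The distance of late from early genes was 0.07, 0.34 and 0.62 with noise in 129X1/SvJ, against -0.28, 0.01 and 0.30 in its controls. In B6.CAST it was -0.30 and -0.33 with noise, against -0.12 and -0.31 in controls. These distances overlapped between noise and control arrays in both strains.

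**Figure D4:**
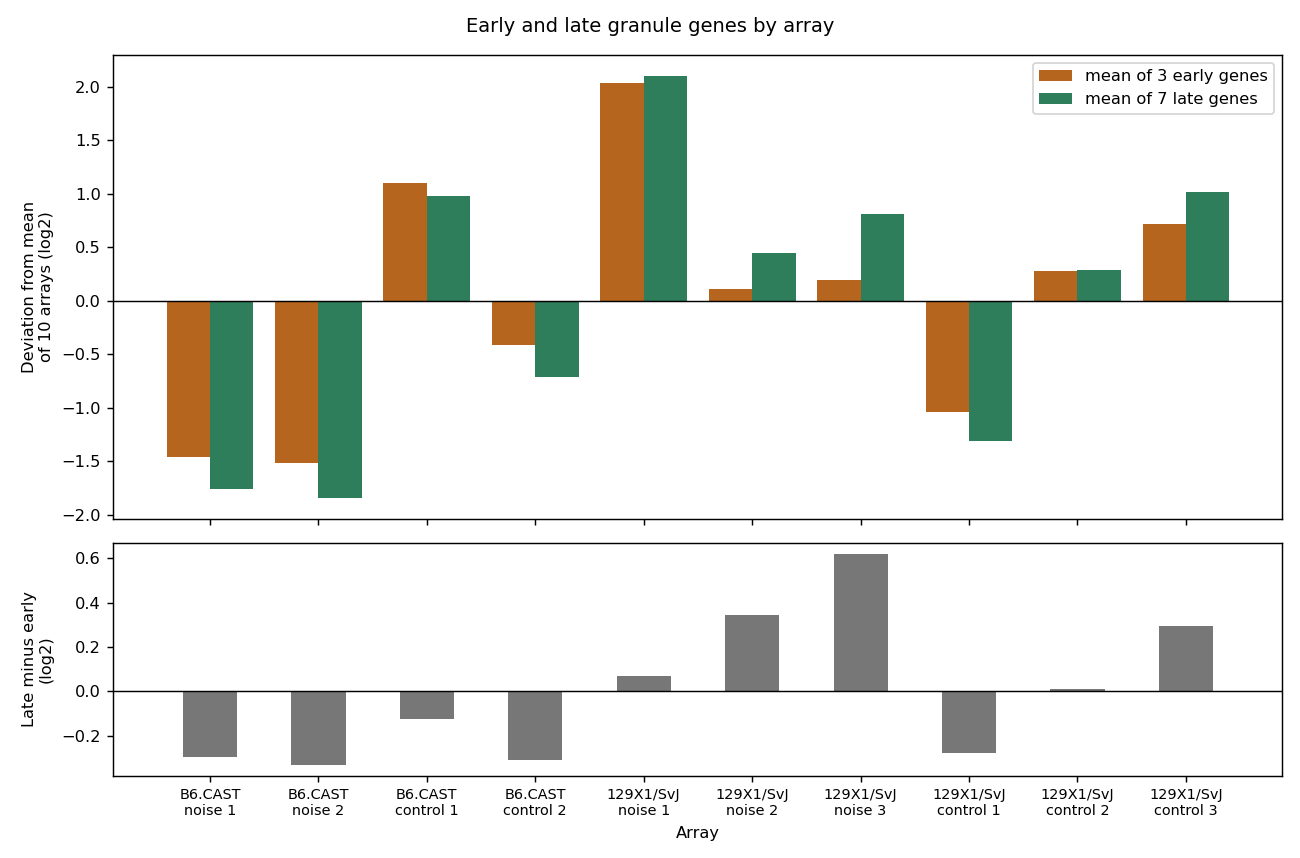
Upper panel, mean deviation of the 3 early genes (brown) and of the 7 late genes (green) from their mean over 10 arrays (log2), by array. Lower panel, late minus early on the same arrays. Both classes are lowest on the 2 B6.CAST noise arrays and highest on 129X1/SvJ noise 1, at 2.04 and 2.10.

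The correlation between members over the 10 arrays was 0.879 (Camp and Elane) to 0.995, with a median of 0.964 over 45 pairs. It was 0.970 at the median among late genes, 0.967 among early genes and 0.951 between the classes. Taken as deviations from the group means, which removes the group differences, the 45 correlations still ran from 0.806 to 0.994 with a median of 0.948. The arrays share their scaling, and pairs of genes are not independent. Relative to the mean of the other 9 genes on the same array, Lcn2 was the only member that was higher on every noise array than on every control array in both strains. For Lcn2 this distance was 0.10 and -0.11 with noise and -0.13 and -0.18 without it in B6.CAST. In 129X1/SvJ it was 0.59, 0.18 and 0.23 with noise, against -0.01, -0.21 and -0.46 without it. Lcn2 was singled out after its values were seen, and the mean difference was 0.16 in B6.CAST and 0.56 in 129X1/SvJ. In B6.CAST the same distance was lower with noise for Mpo and S100a9, by -0.87 and -0.65, and higher for Elane and Prtn3, by 0.61 and 0.49. For signals as low as those of Mpo on these arrays the 16 added to each signal weighs most.

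The second probe sets did not follow the first. That of Mpo had signals of 26.1 to 85.5 and a correlation of 0.05 with the first over 10 arrays. That of Lcn2 had 91.3 and 124 with noise against 76.6 and 91.2 without it in B6.CAST, with a correlation of 0.21 with the first. In B6.CAST it was at 0.32 ± 0.29 with noise (limma adjusted p = 0.9999), opposite in sign to the brighter probe set, and in 129X1/SvJ at 0.38 ± 0.24 (limma adjusted p = 0.54). Both of these probe sets were dim.

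Among other genes of the neutrophil and its precursors, most but not all lay in the direction of the granule genes. Of 34 listed genes, 21 were on the array and 17 were tested. In B6.CAST 13 of the 17 were lower with noise, with a median of -0.52, and none passed. In 129X1/SvJ 15 were higher, with a median of 0.42, and none passed. Their sizes varied: Mmp9 was at -2.04 ± 0.99 in B6.CAST and Lrg1, a leucine-rich glycoprotein, at 1.47 ± 0.43 in 129X1/SvJ (limma adjusted p = 0.9999 and 0.255). Mmp9, the gelatinase of tertiary granules, had 12.8 and 9.6 with noise in B6.CAST, against 200.5 and 38.9 in controls. These noise signals lie below the filter value of 42.9 and below the 16 added to each signal, so the size of the Mmp9 change is not exact. Ctsg, the primary granule protease cathepsin G, had 15.3 and 7.9 with noise in B6.CAST, against 263 and 10.7 in controls, so that the higher level was on 1 control array only. Ly6g, a surface marker of mouse neutrophils, had 27.4 and 48.0 with noise in B6.CAST, against 154 and 52.0 in controls (-1.04 ± 0.42, limma adjusted p = 0.9999). Pglyrp1, a peptidoglycan-binding protein of granules, was lower in B6.CAST than in 129X1/SvJ after noise, at -1.94 ± 0.38 (limma adjusted p = 0.0283), and was the only called member of this list. Its signals were 122 and 164 in B6.CAST with noise, against 992, 438 and 504 in 129X1/SvJ with noise. On control arrays it had 197 and 121 in B6.CAST, against 200.5, 361 and 418 in 129X1/SvJ.

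The chemokine gene Cxcl1 and the genes of the C/EBP factors induced in inflammation, Cebpb and Cebpd, had higher signals with noise in both strains. Cxcl1, which encodes a ligand of the neutrophil receptor Cxcr2, was at 2.93 ± 0.41 in 129X1/SvJ (limma adjusted p = 0.00721) and 1.54 ± 0.50 in B6.CAST (limma adjusted p = 0.9999). Its signals were 200.3 and 122 with noise in B6.CAST, against 37.6 and 46.6 in controls. In 129X1/SvJ they were 744, 379 and 289 with noise, against 53.2, 16.5 and 64.4 in controls. The B6.CAST noise arrays with the lowest granule signals thus held more Cxcl1 than any control array of either strain. Cebpb was at 1.32 ± 0.26 in 129X1/SvJ (limma adjusted p = 0.0638) and at 1.03 ± 0.32 in B6.CAST (limma adjusted p = 0.9999). Cebpd rose by 1.55 ± 0.20 in 129X1/SvJ (limma adjusted p = 0.00335) and was at 1.25 ± 0.24 in B6.CAST (limma adjusted p = 0.30). Myb, a factor of early progenitors, was at -1.61 ± 0.66 with noise in B6.CAST (limma adjusted p = 0.9999). Its signals there were 11.9 and 53.2 with noise, against 238 and 49.8 in controls, so that the high level was on 1 control array only. The signal of 11.9 lies below the filter value of 42.9. Icam1, an endothelial ligand of leukocyte integrins, was at 1.20 ± 0.44 in B6.CAST and 1.60 ± 0.36 in 129X1/SvJ, with limma adjusted p-values of 0.9999 and 0.116. All 9 listed ligands were on the array, but only 3 passed the filter on dim signals and were tested. Of these 3 ligands, 3 were higher with noise in each strain, and 1 passed, in 129X1/SvJ, where 0.506% of all probe sets did. Of 8 tested factors, 5 were higher in B6.CAST and 7 in 129X1/SvJ, where 1 passed. Among 12 receptors and adhesion molecules, 5 were higher in B6.CAST and 9 in 129X1/SvJ, and none passed.

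Of the gene lists of other blood and marrow cells, those of erythroid cells, dividing cells and B cells were high and low on many of the same arrays as the granule genes, and those of macrophages, T and NK cells, and eosinophils, basophils and mast cells were not. The 12 tested erythroid genes had a mean deviation of -1.02 and -0.54 on the B6.CAST noise arrays, 0.36 and -0.68 on the B6.CAST controls, 1.15 on 129X1/SvJ noise 1 and 0.92 on 129X1/SvJ control 3. With noise, 10 of the 12 were lower in B6.CAST (median -0.80) and 10 were higher in 129X1/SvJ (median 0.35), and none passed. Signals were also summed over all 13 listed erythroid genes on the array, tested or not. The sum was 10368 to 14418 with noise and 13403 to 28495 without it in B6.CAST. In 129X1/SvJ it was 26063 to 42752 with noise and 16185 to 38552 without it. Hba-a1 alone had 5719 and 8198 with noise and 17459 and 8249 without it in B6.CAST. Hbb-b2, a beta globin gene, was lower in B6.CAST than in 129X1/SvJ after noise at -2.51 ± 0.53 (limma adjusted p = 0.0422). Hba-a1 was at -1.35 ± 0.36 in the same comparison and did not pass (limma adjusted p = 0.116). Whether the Hbb-b2 probe set reads both strains alike was not tested. Between the control groups Hbb-b2 was already at -1.11 ± 0.53 (limma adjusted p = 0.483), unlike the granule genes. The 10 cell cycle genes lay at -0.62 and -0.49 on the B6.CAST noise arrays and at 0.89 on 129X1/SvJ noise 1. The 12 genes of B cells and their precursors lay at -0.43 and -0.10 on the B6.CAST noise arrays and at 0.64 on 129X1/SvJ noise 1. The 9 bone genes lay at -0.51 and -0.45, and at 0.66, on those same arrays. No tested gene of these lists had a signal of 0 on any array, and the lowest was 4.5, for Mki67. The 10 macrophage genes lay at 0.16 and 0.28 on the B6.CAST noise arrays and at 0.25 on 129X1/SvJ noise 1. Of 10 genes of eosinophils, basophils and mast cells on the array, 3 were tested. These lay at -0.99 and 0.28 on the B6.CAST noise arrays and at -0.81 on 129X1/SvJ noise 1. Of 10 T and NK cell genes on the array, 3 were likewise tested. They lay at 0.20 and -0.003 on the B6.CAST noise arrays and at 0.50 on 129X1/SvJ noise 1. The 1 tested platelet gene lay at -0.94 and 0.23 on the B6.CAST noise arrays, at 0.49 on 129X1/SvJ noise 1 and at 1.04 on 129X1/SvJ control 3. Signals of the next lists were likewise summed over all listed genes on the array. In B6.CAST the sums were 2496 to 2614 with noise and 2206 to 3899.5 without it for the cell cycle list. They were 1353 to 1749 with noise and 1466 to 2202 without it for the B cell list. For the bone list they were 2938 to 3121 with noise, against 2820.4 to 4390.3 without it. The part of these other cells, of the amount of blood or marrow in a pool, and of dissection in the granule values was not tested. The mean deviation of the 16 cochlear genes, as given above, stayed between -0.14 and 0.08. Their summed signal was 66345 to 69884 with noise and 71422 to 71787 without it in B6.CAST. In 129X1/SvJ the sum was 49475 to 55927 with noise and 55154 to 61364 without it, lowest on 129X1/SvJ noise 1. On that array Gjb2, Gjb6 and Dct had their lowest signals of the 10 arrays, and Nefm, Prph and Oc90 their highest. The median change of the 16 cochlear genes with noise was -0.05 in B6.CAST and -0.005 in 129X1/SvJ. Single genes changed by -0.88 to 0.22 in B6.CAST and by -0.63 to 1.19 in 129X1/SvJ, and none passed.

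**Figure D5:**
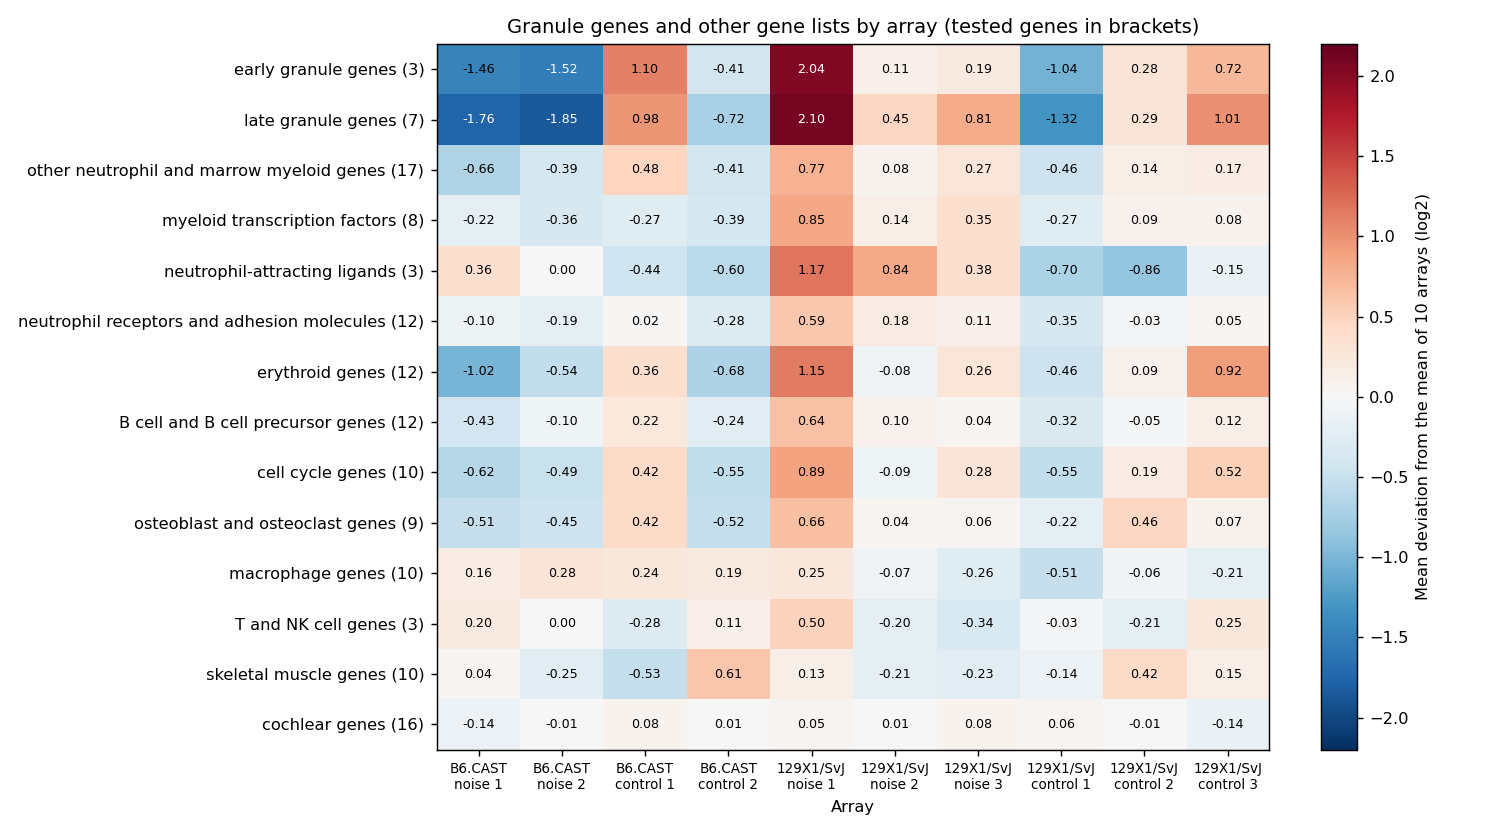
Mean deviation of each gene list (rows, number of tested genes in brackets) from its own mean over the 10 arrays (log2, colour and printed value), by array. The early and late granule rows, the erythroid row and the cell cycle row are highest on 129X1/SvJ noise 1, at 2.04, 2.10, 1.15 and 0.89, while the cochlear row stays between -0.14 and 0.08.

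The genes outside the 10 whose array pattern was most like the mean of the members, over 10 arrays and among 6496 genes, were chosen by Pearson correlation. The first was Wfdc21, a WAP-domain gene, at 0.985, with signals between 38.1 and 727. Fpr2, a formyl peptide receptor of neutrophils, followed at 0.966, then Alas2, the erythroid enzyme of haem synthesis, at 0.961. Ifitm6 had 0.953, Mmp9 had 0.951, Lsp1 (a leukocyte actin-binding protein) had 0.950 and Cks2 (a cell cycle subunit) had 0.948. Apbb1ip, Ltb and Ccnb2 had 0.947, 0.945 and 0.944. Within groups, after removing the group means, the correlations of these 10 genes lay between 0.883 and 0.991. In B6.CAST with noise the changes of Wfdc21, Fpr2, Alas2 and Ifitm6 were -1.58, -0.63, -0.83 and -1.07. In 129X1/SvJ with noise those of Wfdc21, Fpr2, Alas2 and Ifitm6 were 0.95, 0.71, 0.63 and 1.16.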

How the data were processed

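The authors deposited one linear signal intensity per probe set and array. The deposited values had been scaled array by array, since their trimmed means were close to 500 on every array, and for the software, its version and the genome build the entry is: not given in the sources used here. The table held 12488 probe sets, of which 10855 had 1 gene symbol in the platform annotation, 396 had several and 1237 had none. Of these symbols 10839 were found, by gene identifier, in RefSeq on GRCm38.p6, which gave the current names.

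From these intensities log2(intensity + 16) was computed and quantile normalized. After removal of 66 control probe sets and of the dimmest 30% of the others by mean, 8695 remained. A model of 4 group means was fitted to 10 arrays in limma 3.58.1 under R 4.3.3, with a variance trend. Benjamini-Hochberg adjustment ran over all tested probe sets, and the threshold was 0.05. Errors are standard errors, and p-values measure the spread between pools of mice. That spread was estimated per probe set over all 4 groups together and moderated by the trend. An error for B6.CAST thus rests on the 129X1/SvJ arrays as well. For the granule genes the groups spread unequally, with a median log2 range of 0.27 in B6.CAST noise and 2.27 in 129X1/SvJ control arrays. The brightest probe set stood for a gene.

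The members and the 17 gene lists were chosen with earlier results of these data known. Named genes were the members, up to 3 genes per list and comparison with the smallest p, and the 10 genes with the highest correlation with the members; Ctsg, Mmp9 and Pglyrp1 in other comparisons, and Lcn2 relative to the other members, were named after their values were seen. Besides those described, the lists covered megakaryocyte and platelet genes (1 tested), eosinophil, basophil and mast cell genes (3 tested), T and NK cell genes (3 tested) and skeletal muscle genes (10 tested). With noise their medians were -0.36, -0.34, 0.17 and -0.18 in B6.CAST, and -0.44, 0.03, 0.03 and -0.005 in 129X1/SvJ, and none of their genes passed. The fit was tested on simulated data. Alternatives covered scaling, pseudocount, filter, variance model, fits on fewer arrays, each array omitted in turn and the replicate block. The main model used no pairing of arrays by replicate number. As deviations from group means, same-numbered noise and control arrays correlated at -0.17 in B6.CAST and at -0.15, -0.18 and -0.39 in 129X1/SvJ. With 2 or 3 arrays per group such deviations are tied to each other, so these values cannot decide whether the numbers pair arrays.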

Additional observations from a re-analysis of the deposited data

How the results depend on the processing

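The direction of all 10 granule genes was the same under the 22 alternatives for noise in each strain and for the strains after noise, and under the 21 run for the difference of noise effects; 0 of 10 passed in these comparisons except for the strains after noise. There, of all probe sets, 75 were called higher and 56 lower with the deposited scaling. With median centring these were 64 and 49, and with the lower 50% of probe sets left out 75 and 49. The 1 called granule gene became 2 with the deposited scaling, 6 with median centring and 2 with the lower 50% left out. It became 2 with array weights and 5 with only the arrays compared. It became 0 without the variance trend, without both arrays of a high Gapdh ratio, and with the replicate number as a block, and lay between 0 and 6 with each array left out. Among all probe sets, the 4 called for noise in B6.CAST became 2 with a pseudocount of 1 or of 64, 1 with no filter, 0 without the variance trend, 7 with array weights, 0 with only the arrays compared, 0 without both arrays of a high Gapdh ratio and 2 with the replicate block, and lay between 0 and 5 with each array left out. The 44 called in 129X1/SvJ became 71 with array weights and 22 without both arrays of a high Gapdh ratio, and 22 to 48 with each array left out. The 126 called between the strains after noise became 192 with array weights, 53 with only the arrays compared, 29 without both arrays of a high Gapdh ratio and 44 with the replicate block, and 26 to 125 with each array left out. The 80 called between the control groups became 139, 152, 36 and 34 under those same 4 settings, and 23 to 129 with each array left out.

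With each array left out, the median change of the granule genes ran from -2.73 to -0.95 for noise in B6.CAST, from 0.31 to 1.39 in 129X1/SvJ and from -0.65 to 1.04 between the control groups. Between the control groups the sign turned when single control arrays were left out: from -0.60 to 1.31 for Mpo, -0.67 to 0.97 for Prtn3, -0.62 to 0.70 for Camp, -0.87 to 1.10 for Ngp, -0.68 to 0.54 for Ltf, -0.58 to 1.10 for Lcn2, -0.89 to 1.04 for Chil3, -0.74 to 1.04 for S100a8 and -0.74 to 1.33 for S100a9. For Ltf it was also 0.16 without both arrays of a high Gapdh ratio and 0.0367 with the replicate block. The labels name no source shared by arrays of the same replicate number, so the block is reported only here. Crossing the numbers of the 2 B6.CAST control arrays, an alternative chosen after seeing the data, gave 46 and 36 probe sets called for the strains after noise and in controls, 0 granule genes, and 0.0367 for Ltf. Median centring moved the median of all probe sets to -0.11 for noise in 129X1/SvJ and 0.16 for the difference, against which the granule changes keep their direction. Groups of 2 and 3 arrays limit the precision, and the causes of these shifts were not tested.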
